A study of Homo sapiens with 6 samples.

Results

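GREB1 and 8 other genes of the oestrogen response (ESR1, ESR2, PGR, PDZK1, STC2, RERG, NRIP1 and CCND1) were examined in SKOV3 cells, an established line from a human ovarian carcinoma. The set was chosen by general knowledge of the response together with the 3D and 2D values of these same arrays, in which GREB1 stood out, so the values of its genes are given below as a description, without p-values. Of the 9 genes, 8 had an annotated probe set, out of 14884 genes with a symbol in all; RERG, a RAS-like gene induced by oestrogen, is not analysed here. One group, called 3D, was grown for 11 days on low-attachment 96-well plates with 0.015% (w/v) of FP001, an additive named in the labels by this code alone (n = 3). The other, called 2D, was grown for 11 days on attachment plates with no FP001, for which the protocol names water as the substitute (n = 3). All samples had McCoy's 5A medium with 15% serum, and no oestrogen or antagonist was added in any group, as far as the labels say. Because FP001 was added on the low-attachment plates and not on the others, effects of plate and of additive cannot be told apart. Whether replicates were separate cultures is not in the labels, so errors and p-values measure only how far these samples lie apart, and that spread may be technical.

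Oestrogen acts in cells through the nuclear receptors ERα and ERβ, encoded by ESR1 and ESR2. The hormone-bound receptor dimer binds DNA at oestrogen response elements or joins other factors already on DNA, and it recruits coactivators or corepressors. GREB1, PGR, the corepressor gene NRIP1 and the cyclin gene CCND1 are well-known targets in breast cancer cells, and both receptors have long been studied in ovarian cancer.

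The sequence just upstream of the transcription start was available for 6 of the 8 measured genes, in 20 windows of 300 bases (250 before to 50 after an annotated start; RefSeq, GRCh38.p14). Windows for GREB1 and CCND1 were not among those used here. The full palindromic response element, GGTCANNNTGACC, was in 0 of the 20 windows and in 20 of all 35116 promoter windows (0.06%). Its half-site, GGTCA on either strand, which is also part of the full element, was in 10 of the 20 windows, against 37.38% of all windows. The GC box GGGCGG, on either strand, was in 10 of the 20 windows, against 44.95% of all, and the AP-1-like motif TGANTCA, on either strand, was in 0 of the 20, against 7.71% of all. Several windows of a gene overlap, so the 20 are not independent, and a match is a description and not evidence of binding. Of the genes with a window, 3 were higher in 3D (PGR, NRIP1 and ESR1), and 1 window of each that holds a half-site is printed here. A window of PDZK1, which was not higher in 3D, is set beside them because it holds the same half-site. Capitals mark the half-site or its reverse complement, and each sequence reads 5′ to 3′ on the gene's strand.

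PGR, chr11:101129014-101129313, minus strand, half-site beginning 180 bases before the start: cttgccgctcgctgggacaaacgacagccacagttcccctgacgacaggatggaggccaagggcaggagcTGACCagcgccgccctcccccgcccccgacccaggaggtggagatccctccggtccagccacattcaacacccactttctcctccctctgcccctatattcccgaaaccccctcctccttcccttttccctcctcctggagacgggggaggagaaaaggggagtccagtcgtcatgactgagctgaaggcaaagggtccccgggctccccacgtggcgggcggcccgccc
NRIP1, chr21:15064951-15065250, minus strand, half-site beginning 170 bases before the start: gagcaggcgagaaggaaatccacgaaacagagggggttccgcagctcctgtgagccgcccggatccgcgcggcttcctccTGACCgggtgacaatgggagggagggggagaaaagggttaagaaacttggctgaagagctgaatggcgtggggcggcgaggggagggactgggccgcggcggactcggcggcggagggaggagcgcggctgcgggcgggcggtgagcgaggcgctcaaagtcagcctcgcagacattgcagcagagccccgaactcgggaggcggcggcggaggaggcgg
ESR1, chr6:151690277-151690576, plus strand, half-site beginning 29 bases before the start: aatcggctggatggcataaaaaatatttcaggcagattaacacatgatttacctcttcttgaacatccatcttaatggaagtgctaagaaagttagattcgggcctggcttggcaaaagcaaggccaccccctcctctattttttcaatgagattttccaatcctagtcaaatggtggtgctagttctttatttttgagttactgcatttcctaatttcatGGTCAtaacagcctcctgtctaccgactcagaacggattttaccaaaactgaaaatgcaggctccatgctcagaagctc
PDZK1, chr1:145707351-145707650, minus strand, half-site beginning 68 bases before the start: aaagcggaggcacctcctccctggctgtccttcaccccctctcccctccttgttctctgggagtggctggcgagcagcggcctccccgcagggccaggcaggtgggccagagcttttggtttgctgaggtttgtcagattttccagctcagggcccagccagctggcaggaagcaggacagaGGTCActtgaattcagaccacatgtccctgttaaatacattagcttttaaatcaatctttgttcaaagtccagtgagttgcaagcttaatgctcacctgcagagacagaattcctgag

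The windows of PGR and NRIP1 shown also held 4 GC boxes each, and those of ESR1 and PDZK1 held 0. ESR1 has 6 windows at alternative starts, of which 1 held a half-site, and the array value does not tell which start was used. The half-site was in 2 of 3 windows of PGR, 1 of 3 of NRIP1, 2 of 2 of PDZK1, 1 of 1 of STC2 and 3 of 5 of ESR2. Genes that were higher in 3D and genes that were not thus both had windows with the half-site.

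The deposited values are log2 RMA values, and a difference of 1 is a doubling. The lower quartile of all probe sets averaged 2.93 over the arrays and the median 4.33. Levels of different genes cannot be set against each other on this scale, because each probe set has its own brightness. In bulk RNA, more RNA per cell and more expressing cells cannot be told apart. Of 8 measured markers of an ovarian carcinoma line 2 rose (EPCAM and KRT19), 1 fell (KRT7) and 5 did not pass (limma, adjusted p under 0.05; 37.5% past the threshold, against 10.0% of all genes). PAX8, a transcription factor of this lineage, read 10.15 to 10.44 in 3D and 10.13 to 10.25 in 2D. EPCAM, an epithelial adhesion gene, read 9.85 to 10.08 in 3D and 8.10 to 8.34 in 2D. KRT7, a keratin gene of simple epithelia, read 5.11 to 5.16 in 3D and 5.77 to 6.23 in 2D and fell by 0.93 on the log2 scale (limma adjusted p = 0.00532). Of 14 markers of leukocytes, endothelium and fibroblasts 6 were measured, with summed log2 levels of 30.02 to 30.93 in 3D and 26.29 to 27.38 in 2D. Of these 6, 3 rose, where 10.0% of all genes passed, LYZ by 1.83 (adjusted p = 0.00739), PECAM1 by 1.27 (adjusted p = 0.00166) and CD68 by 0.68 (adjusted p = 0.00871, limma for all). The mean of the 2 probe sets of LYZ rose by 1.06. DCN, of fibroblasts, lay under the lower quartile (2.49 to 2.65 in 3D, 2.42 to 2.47 in 2D). VWF read 4.19 to 4.70 in 3D and 4.30 to 4.53 in 2D, and CD14 3.49 to 3.74 in 3D and 3.73 to 4.31 in 2D. The part of other cell types or of a change in such genes in the results below was not tested.

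ESR1, which encodes the receptor ERα, was higher in 3D. It read 7.21, 7.44 and 7.67 in 3D replicates 1 to 3, against 6.18, 5.91 and 5.94 in 2D replicates 1 to 3. The lowest 3D array lay above the highest 2D array. The means were 7.44 ± 0.23 in 3D and 6.01 ± 0.15 in 2D (SD, n = 3 each), a difference of 1.43 ± 0.14 (SE), or 2.69-fold.

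ESR2, which encodes ERβ, gave no such separation. It read 4.13, 3.97 and 3.87 in 3D and 4.04, 3.92 and 3.99 in 2D, and the groups overlapped. The means were 3.99 ± 0.13 in 3D and 3.98 ± 0.06 in 2D (SD, n = 3 each), and the difference was 0.01 ± 0.10 (SE). All 6 values lay below the median of the arrays.

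PGR encodes the progesterone receptor, a steroid receptor whose gene is a classical target of ERα. It read 5.13, 4.93 and 4.94 in 3D, against 2.95, 3.27 and 3.35 in 2D. The groups did not overlap, and the 2D values lay just above the lower quartile, where RMA compresses differences. The means were 5.00 ± 0.11 in 3D and 3.19 ± 0.21 in 2D (SD, n = 3 each), a difference of 1.81 ± 0.13 (SE), or 3.51-fold.

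NRIP1 encodes RIP140, a corepressor that binds hormone-bound nuclear receptors. It had 2 probe sets, and the brighter, used here, read 10.15, 10.00 and 9.99 in 3D, against 9.52, 9.58 and 9.64 in 2D. The groups did not overlap, and the difference was 0.47 ± 0.09 (SE), or 1.39-fold. The other probe set read 5.70, 5.65 and 5.67 in 3D and 5.66, 5.40 and 5.63 in 2D. Its groups overlapped, its difference was 0.11 ± 0.10 (SE), and the mean of both probe sets differed by 0.29. The larger value for NRIP1 thus rests on 1 of its 2 probe sets.

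GREB1, an early oestrogen target whose protein binds ERα, had the largest difference of the 8 genes. It read 7.42, 7.72 and 7.88 in 3D, against 4.73, 4.71 and 4.88 in 2D. The 3D arrays lay far above the 2D arrays, and 3D replicate 1 was the lowest of its group. The means were 7.67 ± 0.23 in 3D and 4.77 ± 0.09 in 2D (SD, n = 3 each), a difference of 2.90 ± 0.13 (SE), or 7.46-fold. Of all 14884 genes, 14 had a difference of this size or more upwards, GREB1 included. Because GREB1 already stood out in these values when the set was chosen, this rank is a description.

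CCND1 encodes cyclin D1, which activates CDK4 and CDK6 in the G1 phase. It read 9.60, 9.74 and 9.76 in 3D, against 9.09, 9.02 and 9.20 in 2D, without overlap. The difference was 0.59 ± 0.10 (SE), or 1.51-fold.

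PDZK1, a scaffold protein gene for membrane transporters, lay on the other side. It read 5.82, 6.40 and 6.22 in 3D, against 6.78, 7.05 and 6.20 in 2D. The groups overlapped through 2D replicate 3, and the difference was -0.53 ± 0.24 (SE). STC2, which encodes the secreted glycoprotein stanniocalcin 2, read 6.97, 5.79 and 6.07 in 3D, against 5.91, 6.45 and 6.58 in 2D. The groups overlapped, with 3D replicate 1 the highest of all 6 arrays and 3D replicate 2 the lowest, and the difference was -0.03 ± 0.31 (SE).

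**Figure D1:**
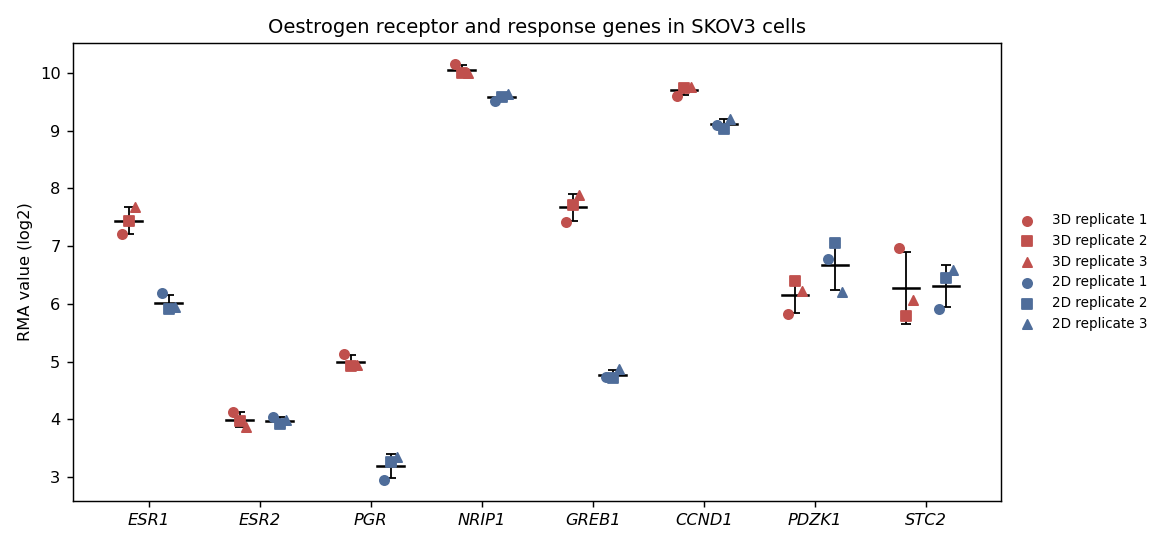
RMA value (log2) of the 8 measured genes on each of the 6 arrays, 3D in red to the left and 2D in blue to the right of each name, with marker shapes for replicates 1 to 3. Horizontal bars are means and whiskers SDs (n = 3 per group). ESR1, PGR, NRIP1, GREB1 and CCND1 have separate groups, whereas ESR2, PDZK1 and STC2 overlap.

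The order of the differences was GREB1 (2.90), PGR (1.81), ESR1 (1.43), CCND1 (0.59), NRIP1 (0.47), ESR2 (0.01), STC2 (-0.03) and PDZK1 (-0.53). The SE of 0.09 to 0.14 for the 5 highest was smaller than the gaps between GREB1, PGR, ESR1 and CCND1, whereas CCND1 and NRIP1 differed by about their SE. ESR2 and STC2 differed by less than their SE. In the fit across all genes (limma, adjusted p under 0.05), 5 of the 8 passed upwards and 0 downwards, where 10.0% of all genes passed in either direction, 5.23% upwards and 4.77% downwards. The groups did not overlap for 5 of the 8, against 29.2% of all genes. Nothing is read from these counts, since the genes were chosen with this comparison in view. Without any single array other than 3D replicate 1, 4 of the 8 passed, because NRIP1 dropped out, and with unequal variances and no shared variance 0 of them passed. The median difference of the 8 was 0.53, against -0.007 over all genes.

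The replicates within 3D did not order these genes in 1 way. 3D replicate 1 was the lowest 3D array for GREB1, ESR1, CCND1 and PDZK1, and the highest for PGR, NRIP1, ESR2 and STC2. The widest spread within 3D was that of STC2 (SD 0.62), and for the 5 higher genes it was 0.09 to 0.23. Leaving out 3D replicate 1 gave a GREB1 difference of 3.02.

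The genes with the pattern most like that of GREB1 were named by Pearson's r of the log2 values over the 6 arrays, among 13463 genes with a mean above the lower quartile. They were the homeobox gene DLX3 (r = 0.9994), GDPD5 (0.9991), POC1B-GALNT4 (0.9990), DAPP1 (0.9985) and LIX1 (0.9983). POC1B-GALNT4 is a readthrough annotation that shares sequence with both its parent genes, so its value is uncertain. The 6 arrays form 2 groups, so these values follow mostly the gap between the groups, and 519 genes had an r over 0.95. DLX3 differed by 4.10, from arrays at 8.20, 8.80 and 8.86 in 3D and 4.55, 4.38 and 4.62 in 2D. LIX1 differed by 2.58, GDPD5 by 2.09, POC1B-GALNT4 by 1.46 and DAPP1 by 0.20. DAPP1 was dim, at 3.40 to 3.42 in 3D and 3.20 to 3.22 in 2D, below the median of the arrays. Among the oestrogen response genes, r with GREB1 was 0.987 for ESR1 and for CCND1, 0.98 for PGR, 0.946 for NRIP1, -0.04 for ESR2, -0.097 for STC2 and -0.643 for PDZK1.

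Beyond the 8 genes, a list of 63 other genes known to be induced by oestrogen in breast cancer cells was compared, of which 46 were measured. Like the other lists compared here, it was drawn up with earlier results of these data known. Its counts and shares are therefore a description and no independent test of an oestrogen response. Of these, 14 rose, 0 fell and 32 did not pass (limma, adjusted p under 0.05 over all genes), which is 30.4% past the threshold against 10.0% of all genes. At an unadjusted p under 0.05, 19 were higher and 7 lower in 3D. The median difference was 0.25, against -0.007 over all genes. Without 3D replicate 2 or without 3D replicate 3 the risen genes numbered 8, without 3D replicate 1 they numbered 14 with 2 fallen, and with unequal variances 1 passed, CA12.

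KRT19, another such keratin gene, had the largest rise on this list. It read 9.50, 10.27 and 10.11 in 3D, against 7.47, 7.45 and 6.87 in 2D, a rise of 2.70 ± 0.24 (SE, n = 3, limma adjusted p = 0.000495). KRT19 also belongs to the epithelial markers, so its change is not evidence for this list alone. RET, a receptor tyrosine kinase gene, read 6.37, 6.88 and 6.90 in 3D, against 4.72, 5.23 and 5.09 in 2D, and rose 3.27-fold (adjusted p = 0.00136). CA12, a membrane carbonic anhydrase gene, read 10.91, 11.09 and 11.08 in 3D, against 9.26, 9.40 and 9.37 in 2D, and rose 3.22-fold (adjusted p = 0.000107). In each of these, every 3D array lay above every 2D array, with 3D replicate 1 the lowest of its group.

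The annexin gene ANXA9 rose by 1.38 ± 0.14 (SE, limma adjusted p = 0.00102) and MREG, of organelle transport, by 1.28 ± 0.11 (adjusted p = 0.000427). RAPGEFL1 rose by 1.21 ± 0.26 (adjusted p = 0.0269), with 5.91, 6.74 and 6.86 in 3D against 5.62, 5.08 and 5.17 in 2D. The other 8 genes that rose were EGR3 (1.16), IL17RB (1.04), SYBU (0.88), OLFM1 (0.65), TIPARP (0.64), CALCR (0.61), LRIG1 (0.60) and the lysosomal protease gene CTSD (0.43), of which all but CTSD were named after their values were seen. CALCR was dim, at 3.32, 3.88 and 3.68 in 3D against 2.90, 3.13 and 3.03 in 2D, all below the median of the arrays. CTSD was measured at 13.17, 13.21 and 13.27 in 3D against 12.68, 12.83 and 12.85 in 2D (adjusted p = 0.0287), and repeated quantile normalization ended its call (0.0738). Of the 14 genes, 6 (RAPGEFL1, IL17RB, OLFM1, CALCR, LRIG1 and CTSD) lost the call when some single arrays were left out, with the highest adjusted p between 0.0735 for IL17RB and 0.148 for CALCR.

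Several textbook targets did not pass. TFF1, a secreted trefoil peptide gene that is a standard readout of ERα activity, read 5.62, 4.82 and 4.96 in 3D and 4.72, 4.89 and 4.59 in 2D, a difference of 0.40 ± 0.21 (SE, limma adjusted p = 0.302). The groups overlapped and 3D replicate 1 stood highest. TFF3 differed by -0.01 ± 0.14 (adjusted p = 0.975), XBP1, of the unfolded protein response, by 0.26 ± 0.12 (adjusted p = 0.229) and IGFBP4 by 0.30 ± 0.12 (adjusted p = 0.199). The widest difference short of the threshold was that of FOS (1.53), named after its value was seen. FOS read 7.08, 8.09 and 8.30 in 3D and 5.93, 7.10 and 5.85 in 2D. It has 2 probe sets, of which only the brighter is given. With the mean of each gene's probe sets, 15 genes of the list rose. The lowest values on the list were those of KLF4 and RHOBTB3 (both -0.49), also named after they were seen. Without 3D replicate 1, RHOBTB3 (limma adjusted p = 0.0404) and KLF4 (0.0239) passed downwards, as did RHOBTB3 without 2D replicate 3 (0.0462) and KLF10 without 2D replicate 1 (0.0472).

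**Figure D2:**
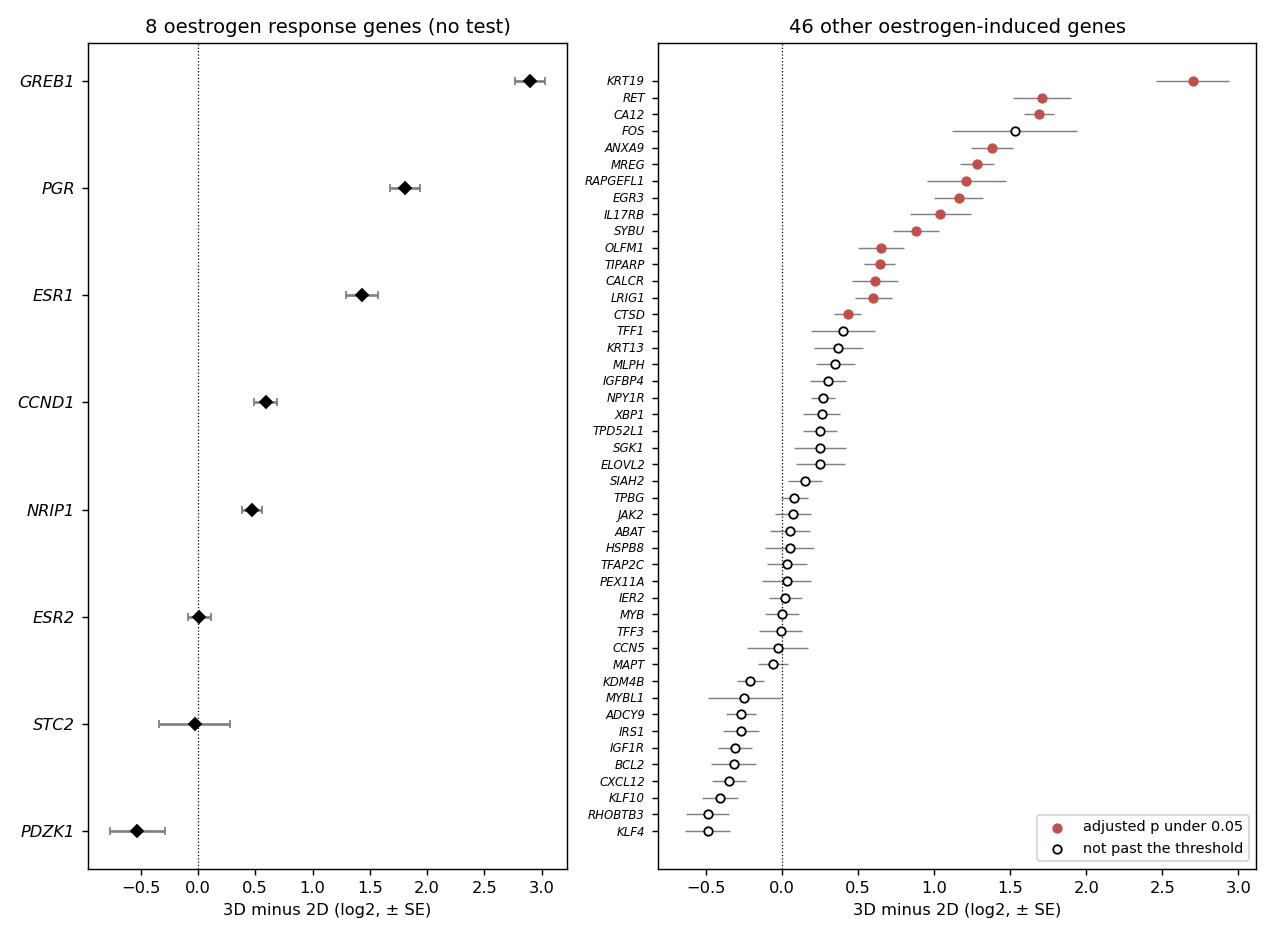
Difference 3D minus 2D (log2) with its SE for the 8 measured genes, as a description without a test (left), and for the 46 other oestrogen-induced genes (right), filled where the adjusted p was under 0.05. GREB1 stands at 2.90 on the left, and the 14 filled genes on the right run from 0.43 for CTSD to 2.70 for KRT19.

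The cofactors and pioneer factors through which ERα works changed in 2 of 19 measured genes, both upwards (10.5%, against 10.0% of all genes; median 0.01). FOXA1, the pioneer factor that opens chromatin for ERα in breast cells, read 5.49, 6.06 and 6.13 in 3D, against 5.23, 5.19 and 5.13 in 2D, and rose by 0.71 ± 0.17 (SE, limma adjusted p = 0.0401). The call was lost without any single array other than 3D replicate 1 (adjusted p up to 0.138). NCOA4, a receptor coactivator and carrier of ferritin to the lysosome, rose by 0.52 ± 0.10 (adjusted p = 0.0158), and leaving out 2D replicate 1 or 3 or 3D replicate 2 or 3 ended the call (up to 0.0741). GATA3 differed by 0.09 ± 0.15 (adjusted p = 0.781).

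Of 32 other steroid and orphan receptors and membrane hormone receptors 9 were measured. PGRMC2, a membrane progesterone receptor component, fell by 0.46 on the log2 scale (adjusted p = 0.0243, limma) and lost the call without any single array other than 3D replicate 1 (up to 0.103). GPER1, the membrane oestrogen receptor gene, differed by 0.22 ± 0.09 (adjusted p = 0.199). PGRMC2 was the 1 gene of the 9 that passed, a share of 11.1% that is near the 10.0% of all genes. Of 24 genes of oestrogen synthesis and inactivation 10 were measured, and 2 rose and 0 fell (20.0%, against 10.0% of all genes; median 0.09), with 1 fallen without 3D replicate 1. HSD17B2, whose enzyme oxidises oestradiol to the weaker oestrone, read 4.78, 5.17 and 5.31 in 3D, against 3.93, 4.09 and 4.62 in 2D, and rose by 0.87 ± 0.21 (adjusted p = 0.0396, limma). HSD17B4, a peroxisomal enzyme with the same oxidising activity, rose by 0.53 ± 0.11 (adjusted p = 0.0216). Leaving out 1 of several arrays ended both calls (adjusted p up to 0.136 and 0.0879).

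Paralogs and a binding partner of the 9 listed genes, RERG included, were compared as well. GREB1L, the paralog of GREB1, read 6.80, 7.05 and 7.08 in 3D, against 6.61, 6.51 and 6.39 in 2D, and rose by 0.47 ± 0.11 (SE, limma adjusted p = 0.0406). That call was lost without any single array other than 3D replicate 1 (up to 0.148). STC1, the paralog of STC2, read 11.23, 11.44 and 11.48 in 3D, against 10.37, 10.52 and 10.13 in 2D, and rose 2.06-fold (adjusted p = 0.00252). PDZK1IP1, a membrane protein gene whose product binds PDZK1, read 6.42, 6.08 and 6.63 in 3D, against 7.71, 7.67 and 7.56 in 2D, and fell by 1.27 on the log2 scale (adjusted p = 0.00174). Of the 7 such genes measured 2 rose, 1 fell and 4 did not pass (42.9%, against 10.0% of all genes; median 0.11). The 4 were RERGL, NHERF4, CCND2 and CCND3.

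Of 13 measured genes that act with or after cyclin D1, 1 rose, 1 fell and 11 did not pass (15.4%, against 10.0% of all genes; median 0.08). CDK6, a catalytic partner of cyclin D1, read 7.13, 7.35 and 7.47 in 3D, against 8.18, 8.11 and 7.71 in 2D, and fell by 0.68 on the log2 scale (limma adjusted p = 0.0314). The other partner, CDK4, differed by -0.26 ± 0.09 (SE, adjusted p = 0.135) and passed with a trended robust variance (0.0372). E2F1, a transcription factor released when the retinoblastoma protein is phosphorylated, rose by 0.45 ± 0.11 (adjusted p = 0.04). Leaving out 1 array ended the call of CDK6 in every case but that of 2D replicate 3 (up to 0.109), and of E2F1 in every case but that of 3D replicate 1 (up to 0.139). Cyclins D2 and D3, counted with the relatives above and not among the 13 genes, did not pass. CCND2 differed by -0.24 ± 0.13 (adjusted p = 0.321) and CCND3 by 0.11 ± 0.11 (adjusted p = 0.639).

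**Figure D3:**
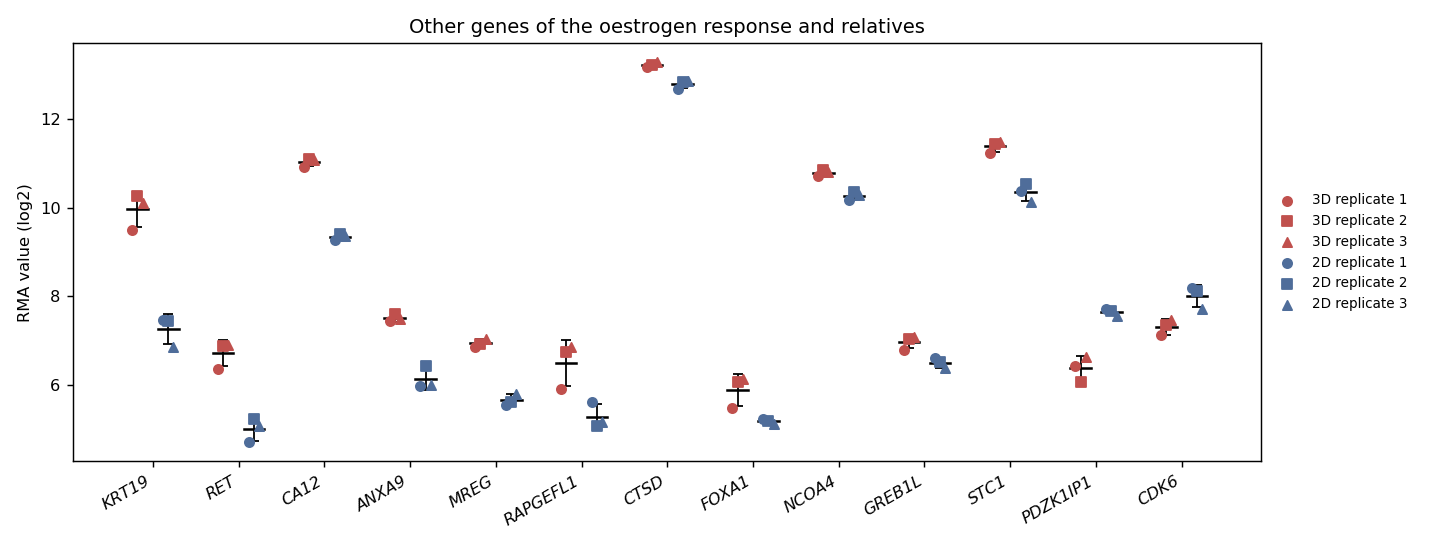
RMA value (log2) of 13 other genes of the oestrogen response, its cofactors, relatives and cyclin D1 partners on each of the 6 arrays, 3D in red to the left and 2D in blue to the right of each name. Bars are means and whiskers SDs (n = 3 per group). Only genes past the threshold (limma, adjusted p under 0.05) are drawn, so named genes that did not pass, such as TFF1 and GATA3, are absent. Not every gene that passed is drawn: E2F1, PGRMC2, HSD17B2, HSD17B4, EGR3 and SYBU, among others, passed and are absent too. PDZK1IP1 and CDK6 lie lower in 3D on every array, and each of the other genes drawn lies higher in 3D on every array.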

How the data were processed

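Total RNA of the 6 SKOV3 samples was labelled with biotin from 100 ng and read on 1 array per sample, per the labels' protocols. The authors deposited log2 values for 53617 probe sets, made with RMA per the submitters' processing notes; its version and any filter are not stated in the labels. That the scale is log2 follows from the range of values (0.30 to 13.87). The labels name a 3′ IVT kit, whereas the probe annotation is that of a whole-transcript array; this was not resolved. The 3 arrays per group limit the precision.

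Symbols came from the platform annotation: 16098 probe sets carried 1 symbol, 0 several and 37519 none, and all 16098 gene identifiers were found in RefSeq (GRCh38.p14), used for current symbols. For each gene the probe set brightest on average over the 6 arrays was used. Groups were compared with limma 3.58.1 in R 4.3.3 (group alone, moderated variances, two-sided, Benjamini-Hochberg over 14884 genes, threshold 0.05), and the fit was tested on simulated data. The studied genes and the lists were chosen with earlier results of these data known. Named were all studied genes, up to 6 genes past the threshold per list by size of change, 17 others whatever their result where measured, and the 5 genes most like GREB1. Equal replicate numbers were not taken to pair the arrays. The alternatives were leaving out each array, unequal variances, the replicate number as a block, a trended and robust variance, other choices among a gene's probe sets (their mean, the most variable, or each tested singly), leaving out genes below the array median, median centring, and quantile normalization run again.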

Additional observations from a re-analysis of the deposited data

How the results depend on the processing

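The GREB1 difference of 2.90 ran from 2.80 (without 3D replicate 3) to 3.02 (without 3D replicate 1), moving by less than the spread between replicates. Only left-out arrays, centring and repeated normalization could move it. GREB1 has 1 probe set, and the block, the variance models and the filter leave its mean difference unchanged by construction. The count of changed genes (1488) was 760 with the replicate number as a block, 82 with unequal variances and no shared variance, and 775 to 1899 when single arrays were left out. Deviations of equally numbered arrays correlated at -0.279, -0.0568 and -0.183, which gave no sign of pairing by replicate number. So few values cannot settle whether the samples were paired. The other oestrogen-induced genes changed numbered 14 in the main fit. They numbered 10 with the block, 17 with a trended and robust variance (15 higher and 2 lower in 3D) and 1 with unequal variances. With the filter on dim probe sets 14 were higher and 1 was lower. Without single arrays they numbered 8 to 16, of which 0 to 2 were lower. Signs turned only for differences near 0. ESR2 gave -0.02 after centring and -0.062 to 0.068 without single arrays, STC2 -0.381 to 0.207, GATA3 -0.003 to 0.213 and TFF3 -0.173 to 0.073. For NRIP1 the mean of both probe sets gave 0.291, beyond the spread between replicates. Of the genes named here, the filter on dim probe sets left out PGR, ESR2, LYZ, PECAM1, CALCR, DAPP1, CD14 and DCN, which have no value there. The cause of the changes was not tested. The table holds no detection calls, so dim genes were not called absent.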
